A study of Mus musculus with 12 samples.

Results

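Integrins and laminins form the link between a muscle cell and its basement membrane. Their subunit genes were compared here across 4 groups of samples, from cultured muscle cells and adult skeletal muscle. The set was taken by gene name from the array's annotation: every integrin alpha, integrin beta, laminin alpha, laminin beta and laminin gamma gene with a probe. It held 37 genes, 26 for integrin subunits and 11 for laminin chains, of 27598 gene names on the array, and 80 of 41174 probes. The name pattern also caught Itgb4bp, whose current name is Eif6, a translation initiation factor and no subunit, which was left out, and genes named after proteins that bind integrin tails were left out as well. Of the 37 genes, 34 had a probe that all 3 arrays of some group read well above background, and these were tested among 18862 genes. The 3 others, Itga2, Itgb2l and Lama1, were not.

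RNA was measured on 12 one-colour Agilent mouse arrays, 3 per group. Soleus and EDL (extensor digitorum longus) came from 3-month-old male CD1 mice, and each sample held the muscles of both hind limbs of 1 animal. Soleus is a slow, oxidative muscle and EDL a fast, glycolytic one, and both hold vessels, nerve, connective tissue and blood cells beside their fibres. Myotubes and myoblasts were C2C12, a line derived from mouse muscle satellite cells. The myotubes were taken 96 h after cultures at 90% confluence were switched to low-serum medium, detached with trypsin and replated for 30 min, after which the cells that had not attached were kept. The myoblasts were proliferating cells at about 50% confluence. The labels do not say whether cultures were grown separately or whether an EDL and a soleus of the same number came from 1 mouse, so the p-values measure the spread between these samples.

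An integrin is a pair of 1 alpha and 1 beta chain that spans the membrane, binds matrix outside the cell and ties it to actin inside through talin, kindlin and other linkers. A laminin is a trimer of 1 alpha, 1 beta and 1 gamma chain, secreted and built into the basement membrane around each fibre, vessel and nerve. In muscle, integrin alpha 7 beta 1 and the dystroglycan complex are the main receptors of the alpha 2 laminins, and loss of the alpha 2 chain causes a congenital muscular dystrophy.

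The upstream sequence of 4 genes is shown because their levels carry main differences described below: Itga9 and Lama2, higher in myotubes than in myoblasts, and the laminin beta chains Lamb1, lower in myotubes, and Lamb2, higher in both muscles under the main scaling. Each is the 300 bases from 250 before to 50 after the gene's annotated start in RefSeq on GRCm38.p6, written in the direction of transcription. Capitals mark CANNTG, the E-box that myogenic factors of the MyoD family bind and that reads the same on both strands in this form.

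Itga9, chr9:118711442-118711741, plus strand: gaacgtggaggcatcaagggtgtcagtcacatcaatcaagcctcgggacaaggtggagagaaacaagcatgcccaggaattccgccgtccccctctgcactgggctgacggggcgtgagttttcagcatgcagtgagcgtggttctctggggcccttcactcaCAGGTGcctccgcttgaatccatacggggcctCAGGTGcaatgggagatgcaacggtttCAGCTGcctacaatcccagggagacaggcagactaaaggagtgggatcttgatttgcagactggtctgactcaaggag
Lama2, chr10:27616893-27617192, minus strand: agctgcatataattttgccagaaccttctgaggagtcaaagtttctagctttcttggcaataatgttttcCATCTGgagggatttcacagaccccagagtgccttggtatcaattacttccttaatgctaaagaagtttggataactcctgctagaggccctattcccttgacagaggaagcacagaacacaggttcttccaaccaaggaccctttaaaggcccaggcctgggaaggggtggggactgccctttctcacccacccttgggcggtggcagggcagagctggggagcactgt
Lamb1, chr12:31265043-31265342, plus strand: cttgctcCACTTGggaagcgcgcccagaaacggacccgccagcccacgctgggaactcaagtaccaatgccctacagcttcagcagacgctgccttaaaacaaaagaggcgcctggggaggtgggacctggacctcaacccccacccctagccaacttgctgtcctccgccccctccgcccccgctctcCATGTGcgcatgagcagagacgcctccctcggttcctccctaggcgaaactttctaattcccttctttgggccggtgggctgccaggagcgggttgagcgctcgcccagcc
Lamb2, chr9:108479612-108479911, plus strand: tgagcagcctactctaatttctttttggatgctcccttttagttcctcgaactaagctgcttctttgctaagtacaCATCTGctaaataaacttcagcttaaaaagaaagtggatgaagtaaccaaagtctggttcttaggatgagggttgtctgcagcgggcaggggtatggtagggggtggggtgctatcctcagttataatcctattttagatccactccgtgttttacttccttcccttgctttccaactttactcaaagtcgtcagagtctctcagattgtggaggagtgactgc

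Itga9 held 3 such matches, 1 of them CAGCTG, Lamb1 held 2, and Lama2 and Lamb2 held 1 each. CANNTG is common: it lies in 72.3% of the 32851 promoters of this length searched, and in 23 of the 27 promoters (85.2%) that the table holds for 24 of the 37 genes. CAGCTG lies in 16.3% of all promoters. A match describes these letters and says nothing about binding.

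Values below are the processed spot signal on a log2 scale, set to a common 75th percentile on every array, so a difference of 1 is 2-fold. A gene was called where limma's adjusted p was under 0.05 and the log2 difference at least 1. Each gene is given by its brightest probe, levels of different probes cannot be ranked against each other, and ± is the SD of 3 arrays. Each of the 3 slides held 1 array of every group, always at the same place on the slide, so the effects of place and group cannot be told apart. The lowest correlation between replicates was 0.976 in soleus, 0.974 in EDL, 0.981 in myotubes and 0.985 in myoblasts. The groups fitted their labels on muscle markers: all 10 skeletal muscle markers rose in myotubes over myoblasts, and their summed log2 signal was 21.86 to 21.95 in soleus, 21.58 to 21.85 in EDL, 20.04 to 20.13 in myotubes and 14.72 to 14.86 in myoblasts. Scaling by spike-in probes in place of the 75th percentile moved the median of all genes by -0.36 in myotubes minus myoblasts, by -1.01 in EDL minus myotubes, by -1.21 in soleus minus myotubes and by -0.20 in soleus minus EDL. Differences are therefore relative to the bulk of genes.

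Some patterns ran through the 34 tested genes. The probe made for the muscle splice form of integrin beta 1 was 175-fold higher in myotubes than in myoblasts while the brightest Itgb1 probe stood at 1.60-fold, not called. Itga7 peaked in myotubes, and both muscles lay below even the myoblasts. Itga9, Itga8 and Lama4 had no signal well above background in myoblasts and clear signal in muscle. Among laminin chains, Lamb1 and Lama5 were highest in myoblasts and Lamb2 and Lama2 in muscle. With spike-in scaling this did not hold for Lamb2 in soleus or for Lama2 in either muscle, and Lama2 then stood highest in myotubes.

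In myotubes minus myoblasts 15 of 34 genes were called, 12 higher and 3 lower, where 18.9% of all genes were called higher and 16.5% lower. Their median difference was 0.61, against 0.04 for all genes. In EDL minus myotubes 19 were called, 11 higher and 8 lower, with 27.9% and 19.8% of all genes called in those directions and medians of 0.23 and 0.21. In soleus minus myotubes 18 were called, 10 higher and 8 lower, with 25.8% and 19.5% of all genes and medians of 0.37 and 0.15. Soleus minus EDL gave 5 calls, 4 higher and 1 lower, with 5.03% and 4.74% of all genes and medians of 0.20 and -0.04. Against myoblasts, EDL had 16 genes higher and 10 lower (33% and 24.8% of all genes) and soleus 15 higher and 9 lower (30.8% and 24.7%). Spike-in scaling ended 9 of the 16 higher calls in EDL and 7 of the 15 in soleus, and no lower call in either. In EDL minus myoblasts Itga1 then stood at 0.90, Itgam at 0.90 and Lamb2 at 0.22, and in soleus minus myoblasts Itga1 stood at 1.70, Itga4 at 0.12 and Lamb2 at -0.33, none of them called. The share of subunit genes called higher in myotubes, 35.3%, was above the share of all genes, and in the other comparisons with myotubes the shares were near it. These comparisons share groups, so their counts are not independent.

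**Figure D1:**
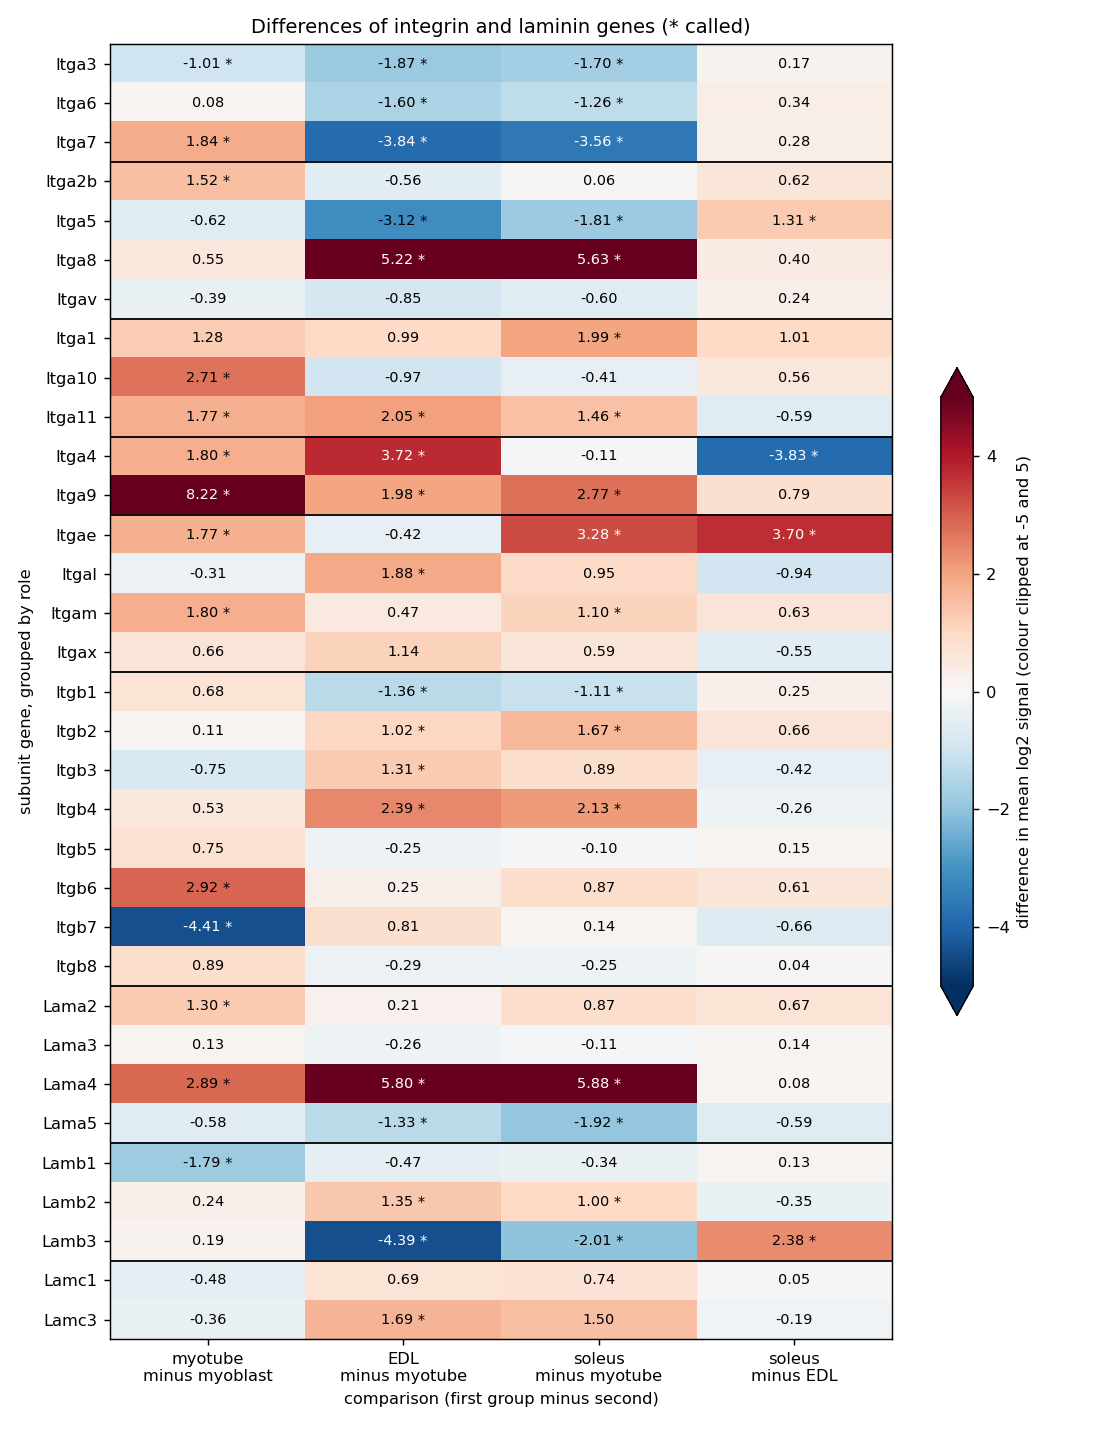
Log2 differences of the integrin and laminin genes named here (rows, grouped by role) in 4 comparisons (columns), first group minus second, with a star where a gene was called, red where higher and blue where lower. The laminin-binding alpha chains are blue in both muscle-minus-myotube columns, and few genes carry a star between the muscles.

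Integrin alpha 7 pairs with beta 1 as a laminin receptor of muscle, alpha 6 is a laminin receptor of many epithelia, and alpha 3 binds laminins of epithelia. Itga7 read 11.09, 10.93 and 10.96 in soleus, 10.77, 10.67 and 10.68 in EDL, 14.59, 14.50 and 14.56 in myotubes, and 12.74, 12.72 and 12.68 in myoblasts. No 2 groups overlapped, and the order was myotubes, myoblasts, soleus, EDL. It rose 3.57-fold in myotubes over myoblasts (log2 difference 1.84, SE 0.07, adjusted p = 5.9e-09) and fell 14.3-fold in EDL (-3.84, adjusted p = 3.1e-11) and 11.8-fold in soleus (-3.56, adjusted p = 5.0e-11) relative to myotubes. Both muscles were also called lower than myoblasts, by -2.01 in EDL and -1.72 in soleus. A second Itga7 probe gave 1.84, -4.09 and -3.73 in the same 3 comparisons with myotubes.

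Itga6 averaged 11.50 ± 0.21 in soleus, 11.16 ± 0.04 in EDL, 12.76 ± 0.12 in myotubes and 12.68 ± 0.12 in myoblasts. Myotubes and myoblasts overlapped (0.08, SE 0.11), and the gene fell in EDL (-1.60, adjusted p = 4.3e-07) and in soleus (-1.26, adjusted p = 3.1e-06) relative to myotubes. Itga3 was highest in myoblasts, with 7.96 ± 0.45 in soleus, 7.79 ± 0.36 in EDL, 9.66 ± 0.19 in myotubes and 10.67 ± 0.23 in myoblasts. It fell in EDL (-1.87, SE 0.25, adjusted p = 5.8e-05) and in soleus (-1.70, SE 0.25, adjusted p = 1.2e-04) relative to myotubes. All 3 laminin-binding alpha genes thus fell in both muscles, with a median of -1.87 in EDL and -1.70 in soleus, and with spike-in scaling all 3 stayed lower. The probes of 2 of them disagreed: another Itga3 probe rose in EDL over myotubes (1.67, SE 0.43, adjusted p = 0.00563) and was at 0.56 in soleus, and another Itga6 probe was at 0.45 in EDL and 0.93 in soleus. Means over all probes of a gene put Itga3 at -0.82 in EDL and Itga6 at -0.94 in EDL and -0.43 in soleus minus myotubes, none called. The call of Itga3 in myotubes minus myoblasts (-1.01, adjusted p = 0.00475) lay at the threshold and was lost without myotube replicate 1 (-0.91), without myoblast replicate 3 (-0.88), without replicate 2 or 3 in every group (-1.06 and -0.97), and with quantile (-0.97), spike-in (-1.37, adjusted p = 0.0571) or normexp (-0.85) processing.

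**Figure D2:**
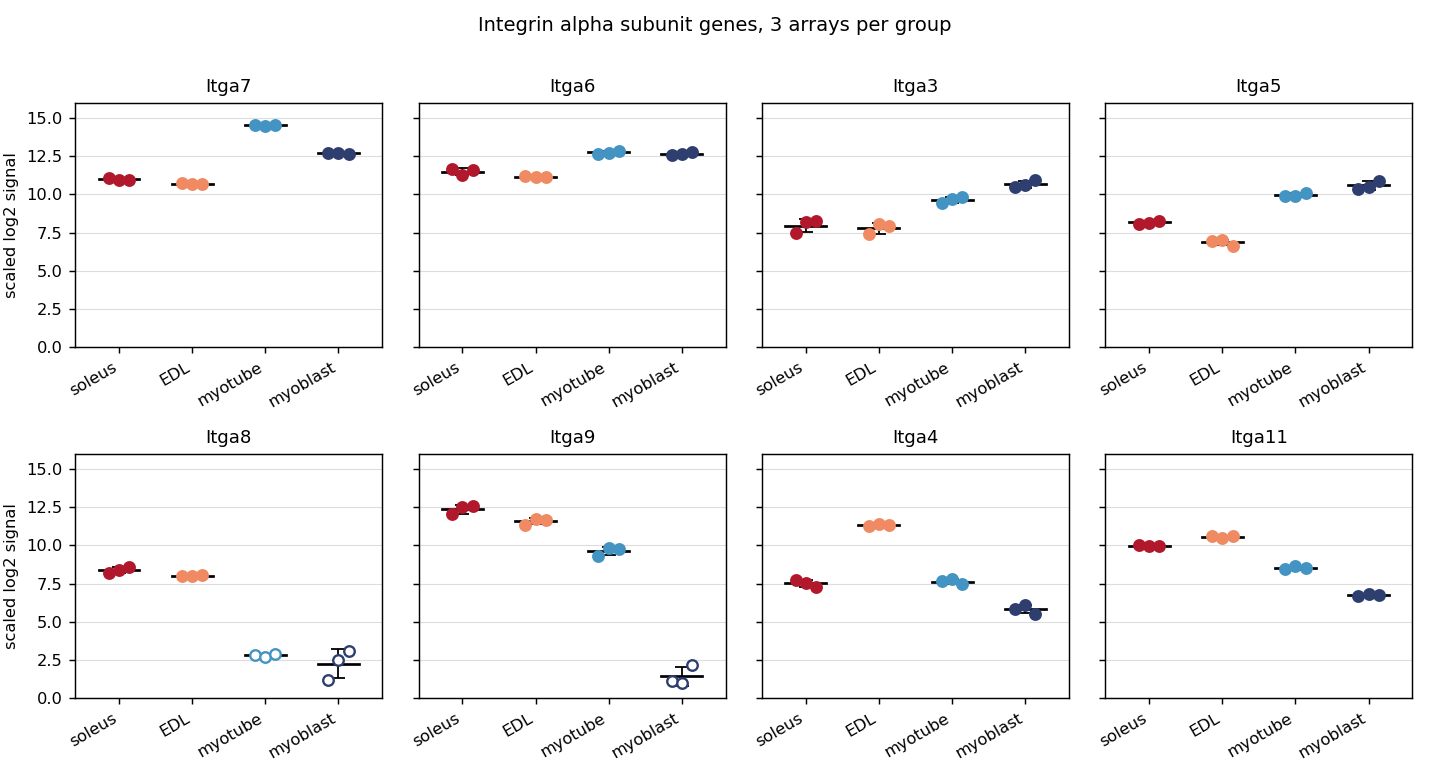
Scaled log2 signal (vertical axis) of 8 integrin alpha genes in soleus, EDL, myotubes and myoblasts; points are arrays, bars the mean and SD, and open points mark groups with no array well above background. Itga7 is highest in myotubes, Itga9 is near the floor only in myoblasts, Itga8 only in both cultures, and Itga4 stands high in EDL alone.

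Of the alpha chains that bind the RGD sequence of fibronectin, vitronectin and similar ligands, alpha 5 is the classical fibronectin receptor. Itga5 read 8.09, 8.12 and 8.26 in soleus, 6.93, 6.98 and 6.63 in EDL, 9.88, 9.90 and 10.11 in myotubes, and 10.39, 10.46 and 10.90 in myoblasts. The 4 groups did not overlap. Itga5 fell 8.66-fold in EDL (-3.12, SE 0.15, adjusted p = 1.8e-08) and 3.50-fold in soleus (-1.81, adjusted p = 1.4e-06) relative to myotubes, and its difference between myotubes and myoblasts was -0.62 (SE 0.15). Its main ligand, Fn1 (fibronectin), was at -3.25 in soleus and -3.89 in EDL minus myotubes, both called, and -0.85 in myotubes minus myoblasts, not called.

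Itga8, a chain known from kidney development and smooth muscle, was well above background on every muscle array and on no culture array. It read 8.18, 8.42 and 8.61 in soleus and 7.98, 7.98 and 8.04 in EDL, against 2.79, 2.69 and 2.86 in myotubes and 1.17, 2.46 and 3.05 in myoblasts. It was at least 30.6-fold higher in soleus (adjusted p = 2.3e-07) and at least 23.1-fold higher in EDL (adjusted p = 4.0e-07) than in myotubes, where the bound sets the dim group at the lowest signal called well above background. A second Itga8 probe gave at least 63.1-fold and at least 45.4-fold. Itgav, the partner of several beta chains, was at 9.75 ± 0.18 in soleus, 9.51 ± 0.15 in EDL, 10.36 ± 0.18 in myotubes and 10.75 ± 0.13 in myoblasts and was not called in soleus or EDL minus myotubes (-0.60 and -0.85, SE 0.13), though it was with spike-in scaling (-1.82 and -1.86), and in EDL without replicate 1 in every group (-1.02). The other Itgav probes kept were dimmer and disagreed, at -1.85, 0.94 and -0.31 in soleus and -2.03, 0.37 and -0.77 in EDL minus myotubes. Itga2b, the platelet alpha chain, rose in myotubes over myoblasts (1.52, SE 0.18, adjusted p = 3.3e-05), with 5.55 ± 0.01 in myotubes and 4.03 ± 0.14 in myoblasts. Of 7 platelet markers 4 were well above background on all 3 myotube arrays and 3 on all 3 myoblast arrays. Pf4 and Gp9 were on no array of either culture. In myotubes minus myoblasts 3 of the 7 were called higher and 1 lower, with a median of 0.78. For all genes the shares called higher and lower were 18.9% and 16.5%, and the median 0.04. With normexp correction the Itga2b difference was 0.22 and not called. EDL minus myotubes, at -0.56, was called lower with quantile (-1.13) or spike-in (-1.57) scaling or the authors' values (-1.12), and soleus minus myotubes, at 0.06, was called lower with spike-in scaling (-1.16).

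Among collagen receptors, Itga11, a fibrillar collagen receptor of fibroblasts, had tight replicates: 10.06, 9.96 and 9.97 in soleus, 10.61, 10.50 and 10.63 in EDL, 8.43, 8.64 and 8.52 in myotubes, and 6.71, 6.82 and 6.76 in myoblasts. No groups overlapped. It rose in myotubes over myoblasts (1.77, SE 0.08, adjusted p = 1.7e-08) and again in EDL (2.05, adjusted p = 3.8e-09) and soleus (1.46, adjusted p = 5.2e-08) over myotubes. The soleus call was lost with spike-in scaling (0.25), and the myotube call with normexp (0.85). Itga10, a collagen receptor best known from cartilage, rose in myotubes over myoblasts (2.71, SE 0.45, adjusted p = 3.7e-04), with 5.66 ± 0.22 in myotubes and 2.95 ± 0.71 in myoblasts, and 2 of the 3 myoblast arrays were well above background. With normexp that difference was 0.48 and was not called. Itga10 in soleus and EDL minus myotubes was at -0.41 and -0.97, not called, but was called lower with spike-in scaling (-1.63 and -1.98) and, in EDL, without EDL replicate 2 (-1.5), without replicate 2 in every group (-1.55) and with quantile scaling (-1.49).

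Itga1, a receptor of network-forming collagen, gave different pictures by probe. Its brightest probe averaged 9.70 ± 1.02 in soleus, 8.69 ± 1.20 in EDL, 7.71 ± 0.47 in myotubes and 6.43 ± 0.28 in myoblasts, with replicate 1 lowest in each group. It was called in soleus minus myotubes (1.99, SE 0.62, adjusted p = 0.0148), not in EDL minus myotubes (0.99) or myotubes minus myoblasts (1.28). The soleus call was lost without any 1 of soleus replicate 2 (1.72), soleus replicate 3 (1.68) and myotube replicate 1 (1.76), without replicate 2 or 3 in every group (1.72 and 1.91), and with spike-in scaling (0.78). With slide as a block the myotube difference was called (1.28, adjusted p = 0.0122), as it was without replicate 1 in every group (1.37), and without replicate 1 EDL minus myotubes was called too (1.44 without all 4 arrays of it, 1.67 without the EDL array). The other Itga1 probes kept were well above background on all muscle arrays and on no culture array. They were at least 11.1-fold and at least 23.2-fold higher in soleus, and at least 9.61-fold and at least 19.2-fold higher in EDL, than in myotubes.

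Integrins alpha 4 and alpha 9 form a small subfamily that binds VCAM-1, fibronectin splice forms, tenascin and osteopontin. Itga9 had the widest range of the 34 genes, 10.99 between its highest and lowest group mean. It read 12.06, 12.51 and 12.61 in soleus, 11.37, 11.76 and 11.69 in EDL, 9.31, 9.82 and 9.75 in myotubes, and 1.11, 0.98 and 2.14 in myoblasts, where no array was well above background. Groups did not overlap, and the order was soleus, EDL, myotubes, myoblasts. Itga9 was at least 102-fold higher in myotubes than in myoblasts (adjusted p = 3.2e-09), and it rose in soleus (2.77, SE 0.29, adjusted p = 1.0e-05) and EDL (1.98, SE 0.29, adjusted p = 1.3e-04) over myotubes, though with spike-in scaling the EDL difference was 0.97 and not called.

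Itga4, the chain by which lymphocytes bind VCAM-1, separated the muscles from each other. It read 7.72, 7.56 and 7.29 in soleus, 11.27, 11.44 and 11.35 in EDL, 7.67, 7.77 and 7.45 in myotubes, and 5.85, 6.10 and 5.53 in myoblasts. EDL stood apart from all other groups, and soleus overlapped myotubes. Itga4 fell 14.2-fold in soleus relative to EDL (-3.83, SE 0.16, adjusted p = 1.2e-07) and rose 13.2-fold in EDL over myotubes (3.72, adjusted p = 8.2e-09). Another Itga4 probe was well above background on the 3 EDL arrays and on no other array, and soleus was at least 6.84-fold lower than EDL on it (adjusted p = 1.1e-05). On the remaining probe that passed the background filter, also dim in soleus, soleus was at least 1.94-fold lower. The Itga4 probes that did not pass it were near the floor and showed no such split. They averaged 3.54, 3.27 and 2.44 in soleus and 3.96, 3.14 and 2.77 in EDL. Itga4 rose in myotubes over myoblasts (1.80, adjusted p = 3.3e-06), a call lost with normexp (0.68), and soleus minus myotubes, at -0.11, was called lower with spike-in scaling (-1.32).

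Leukocyte alpha chains mark immune cells: alpha E is found on lymphocytes in epithelia, alpha L on most leukocytes, alpha M on macrophages and neutrophils, and alpha X on dendritic cells. Itgae read 9.42, 9.66 and 9.68 in soleus, 5.63, 5.87 and 6.16 in EDL, 6.02, 6.54 and 6.37 in myotubes, and 4.30, 4.57 and 4.76 in myoblasts. Soleus stood above all others, and EDL overlapped myotubes. It rose 13-fold in soleus over EDL (3.70, SE 0.18, adjusted p = 2.8e-07) and 9.70-fold in soleus over myotubes (3.28, adjusted p = 6.1e-08). Another Itgae probe, which did not pass the background filter, showed no such rise. It averaged 2.69 in soleus, 2.52 in EDL, 3.87 in myotubes and 1.31 in myoblasts, with only 2 myotube arrays well above background. Itgae also rose in myotubes over myoblasts (1.77, adjusted p = 1.0e-05), a call lost with normexp (0.44), and EDL minus myotubes, at -0.42, was called lower with spike-in scaling (-1.43). Itgb7, which codes the only known partner of alpha E, was at -0.66 in soleus minus EDL and not called. Of 14 macrophage and leukocyte markers none was called between the muscles, with a median of -0.04, and their summed log2 signal was 13.95 to 14.04 in soleus and 13.88 to 13.92 in EDL.

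Itgal rose in EDL over myotubes (1.88, SE 0.35, adjusted p = 6.5e-04), with 8.27 ± 0.41 in EDL and 6.39 ± 0.62 in myotubes, a call lost with spike-in scaling (0.87) and normexp (0.80). In soleus minus myotubes it was at 0.95, just under the threshold, and passed it without soleus replicate 1 (1.24) or myotube replicate 2 (1.12) or 3 (1.13). On its brightest probe Itgam was well above background on no myoblast array and was at least 2.60-fold higher in myotubes than in myoblasts (adjusted p = 3.5e-04). It averaged 4.34 ± 0.26 in myotubes and 2.54 ± 0.55 in myoblasts, and the call was lost with normexp (0.17). Its soleus-minus-myotube call (1.1, adjusted p = 0.00673) was lost without soleus replicate 1 (1.00), without myotube replicate 3 (0.98), without replicate 1 in every group (0.99) and with quantile scaling (0.50) or normexp (0.10), and turned to -0.11 with spike-in scaling. Another Itgam probe, which did not pass the background filter, averaged 2.23 in myotubes and 2.10 in myoblasts. Only 1 myoblast array was well above background on it. Itgb2, the beta chain shared by alpha L, alpha M and alpha X, averaged 6.83 ± 0.57 in soleus, 6.18 ± 0.28 in EDL, 5.16 ± 0.67 in myotubes and 5.05 ± 0.31 in myoblasts. It rose in soleus over myotubes (1.67, SE 0.36, adjusted p = 0.00189), lost with spike-in scaling (0.46) and normexp (0.36). Its EDL call (1.02, adjusted p = 0.0273) was lost under most settings, among them without EDL replicate 2 (0.89) or 3 (0.99) and without myotube replicate 1 (0.64), without replicate 1 in every group (0.79), and with quantile (0.50), spike-in (0.01) or normexp (0.14) processing. Itgax varied widely within EDL, at 4.41, 7.41 and 5.32, and was not called in either muscle minus myotubes (0.59 in soleus, 1.14 in EDL), though it was in EDL without EDL replicate 1 (1.79) or replicate 1 in every group (1.80). Of the 14 leukocyte markers 10 rose and 1 fell in both muscles relative to myotubes. Ptprc, C1qa, C1qc and Tyrobp were on no culture array well above background, while 9 of the 14 were on all 3 myotube arrays and 7 on all 3 myoblast arrays. The part of leukocytes in these differences was not tested.

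Integrin beta 1 pairs with most alpha chains. In striated muscle its transcript is spliced to a form called beta 1D, which has its own cytoplasmic tail and replaces the common tail as myoblasts fuse. The array carried 3 Itgb1 probes, and the annotation in the deposited files names 1 of them for integrin beta 1D. On the mm8 build of the array's annotation, its outer ends lie at chr8:131613121-131618139, 5019 bases apart, so it spans a gap in the genome, and the brightest Itgb1 probe lies at chr8:131618682-131618741.

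The beta 1D probe read 11.23, 10.64 and 10.97 in soleus, 10.97, 10.40 and 10.39 in EDL, 12.43, 11.65 and 11.87 in myotubes, and 4.65, 4.44 and 4.53 in myoblasts. Every myotube and muscle array was far above every myoblast array. In a test over all 28607 kept probes, added after the values were seen, it rose by 7.45 in myotubes over myoblasts (SE 0.23, adjusted p = 1.4e-09), which is 175-fold, and by 6.40 in soleus and 6.05 in EDL over myoblasts. With normexp correction the Itgb1 beta 1D difference between myotubes and myoblasts was 4.28 and still called. The brightest probe read 12.39, 11.92 and 12.19 in soleus, 12.23, 11.78 and 11.75 in EDL, 13.62, 13.06 and 13.17 in myotubes, and 12.93, 12.38 and 12.51 in myoblasts, a difference of 0.68 (SE 0.21) in myotubes minus myoblasts that was not called. Within an array, the log2 ratio of the beta 1D probe over the brightest probe was above its myoblast mean by 6.84 ± 0.06 in soleus, 6.74 ± 0.06 in EDL and 6.77 ± 0.11 in myotubes, with an SD of 0.18 among the myoblast arrays (n = 3 each). The ratio to the brightest probe thus took nearly the same value in myotubes and both muscles. The remaining Itgb1 probe was at 0.17 in myotubes minus myoblasts. In soleus and EDL minus myoblasts it was at -1.28 and -1.57, where the brightest probe was at -0.44 and -0.69. Itgb1 fell in EDL (-1.36, SE 0.21, adjusted p = 1.7e-04) and soleus (-1.11, adjusted p = 7.6e-04) relative to myotubes on the brightest probe, and the beta 1D probe was at -1.40 and -1.04. The soleus call was lost without soleus replicate 2 (-0.99) or myotube replicate 1 (-0.95), and that of the beta 1D probe in soleus was lost without the same arrays (-0.89 and -0.82), without replicate 1 in every group (-0.96) and with normexp (-0.97) or the authors' values (-0.99).

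**Figure D3:**
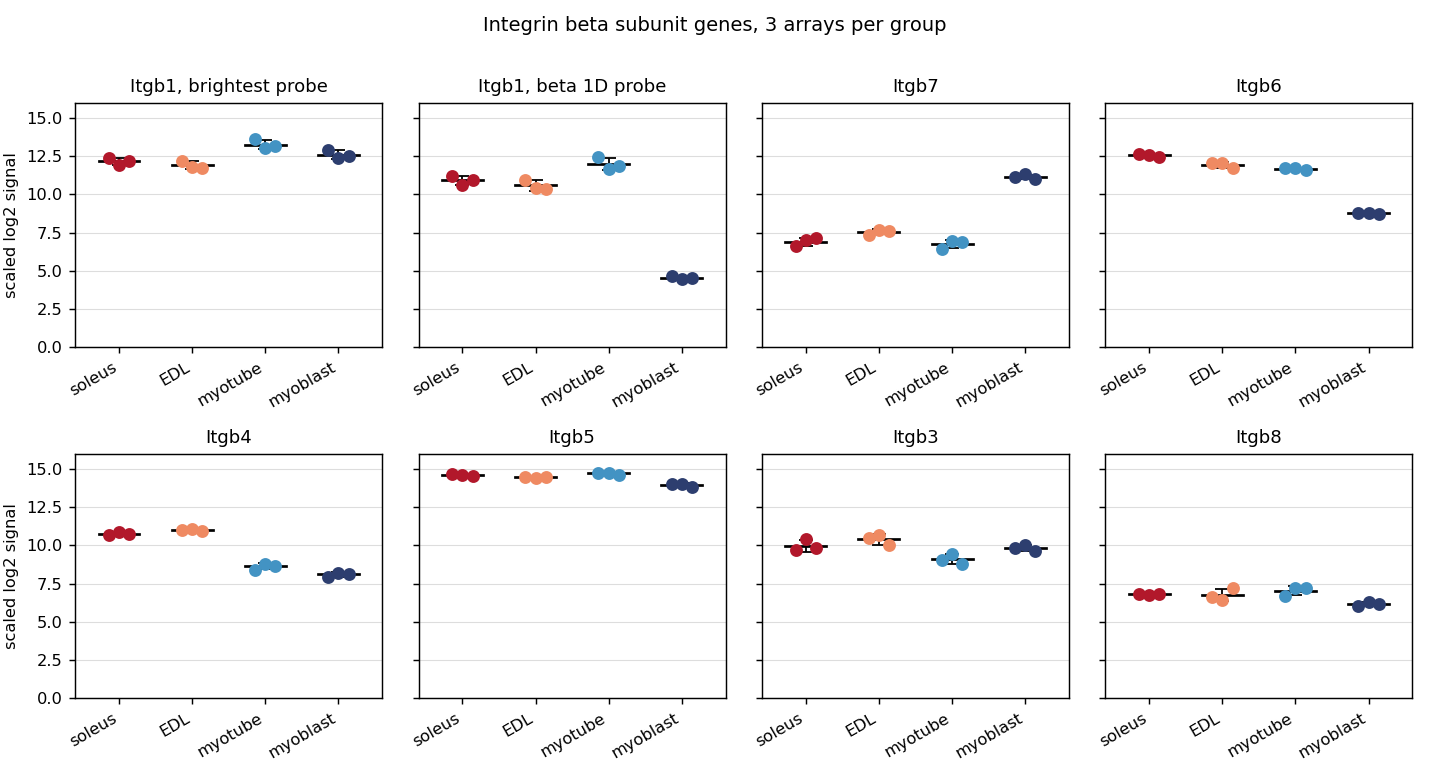
Scaled log2 signal (vertical axis) of integrin beta genes in the 4 groups, with Itgb1 shown by its brightest probe and by the beta 1D probe; points are arrays, bars the mean and SD. The beta 1D probe is near 4.54 in myoblasts and at 10.39 or more in all other groups, while Itgb7 is high in myoblasts alone.

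Itgb7, the beta chain of lymphocyte homing receptors, was the reverse case. It read 6.61, 6.98 and 7.11 in soleus, 7.36, 7.69 and 7.63 in EDL, 6.45, 6.92 and 6.89 in myotubes, and 11.12, 11.33 and 11.04 in myoblasts. Myoblasts stood alone, and Itgb7 fell 21.3-fold in myotubes relative to them (-4.41, SE 0.17, adjusted p = 5.6e-09). Itgb6, a beta chain that activates latent TGF-beta and is best known from epithelia, went the other way: 12.63, 12.60 and 12.47 in soleus, 12.04, 12.07 and 11.75 in EDL, 11.73, 11.75 and 11.62 in myotubes, and 8.80, 8.79 and 8.74 in myoblasts. It rose 7.57-fold in myotubes over myoblasts (2.92, SE 0.10, adjusted p = 1.8e-09), and in soleus and EDL minus myotubes it was at 0.87 and 0.25, not called.

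Itgb4, the partner of alpha 6 in hemidesmosomes and on nerve sheath cells and vessels, averaged 10.77 ± 0.10 in soleus, 11.02 ± 0.07 in EDL, 8.63 ± 0.19 in myotubes and 8.10 ± 0.15 in myoblasts. It rose in EDL (2.39, SE 0.12, adjusted p = 1.9e-08) and soleus (2.13, SE 0.12, adjusted p = 5.0e-08) over myotubes, while Itga6 fell in both. With spike-in scaling the soleus difference of Itgb4 was 0.92 and not called. Itgb3, the vitronectin receptor chain, rose in EDL over myotubes (1.31, SE 0.25, adjusted p = 7.5e-04), with 10.40 ± 0.35 in EDL and 9.09 ± 0.33 in myotubes, and was at 0.89 in soleus and -0.75 in myotubes minus myoblasts, not called. With spike-in scaling the Itgb3 call in EDL was lost (0.30). Without a change of scaling, the soleus difference passed the threshold without soleus replicate 1 (1.04), myotube replicate 2 (1.06) or replicate 1 in every group (1.01), and a second Itgb3 probe fell in myotubes relative to myoblasts (-2.48, SE 0.14, adjusted p = 8.7e-08). Itgb5 had the narrowest range of group means among the beta genes, 0.75, at 14.63 ± 0.07 in soleus, 14.48 ± 0.03 in EDL, 14.73 ± 0.07 in myotubes and 13.98 ± 0.14 in myoblasts. Its differences were -0.10 in soleus and -0.25 in EDL minus myotubes and 0.75 in myotubes minus myoblasts, none called, though with spike-in scaling it was called lower in both muscles (-1.32 and -1.26). Itgb8, another partner of alpha V, was at 0.89 (SE 0.20) in myotubes minus myoblasts, not called, and 1.05 without myotube replicate 1, and a second Itgb8 probe was called there (2.15, SE 0.35) and lower in EDL (-2.69) and soleus (-1.65) than in myotubes, where the first was at -0.29 and -0.25 and was called lower with spike-in scaling (-1.3 and -1.46).

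The laminin alpha chain sets what a laminin binds. Lama2, the chain of the adult muscle basement membrane, read 12.09, 12.21 and 12.30 in soleus, 11.49, 11.52 and 11.60 in EDL, 11.18, 11.37 and 11.42 in myotubes, and 9.91, 10.00 and 10.17 in myoblasts. No groups overlapped. It rose in myotubes over myoblasts (1.3, SE 0.10, adjusted p = 1.0e-06), which spike-in scaling took to 0.94 and under the call, and was at 0.87 in soleus and 0.21 in EDL minus myotubes, not called. Spike-in scaling turned both of these signs (-0.34 and -0.80, not called). Relative to myoblasts it rose 4.52-fold in soleus and 2.85-fold in EDL, 2.18 and 1.51 on the log2 scale, with 0.60 and 0.14, not called, under spike-in scaling. A second Lama2 probe gave 1.16 in myotubes minus myoblasts.

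Lama4, a chain of vessel walls, nerve and the synaptic basement membrane, read 10.48, 10.62 and 10.63 in soleus and 10.41, 10.56 and 10.52 in EDL, against 4.25, 4.95 and 4.89 in myotubes and 1.04, 1.57 and 2.80 in myoblasts. The muscles overlapped each other and lay far above the cultures, and no myoblast array was well above background. Lama4 rose 58.8-fold in soleus (5.88, SE 0.37, adjusted p = 1.7e-07) and 55.7-fold in EDL (5.80, adjusted p = 1.7e-07) over myotubes. It was at least 3.22-fold higher in myotubes than in myoblasts (adjusted p = 5.5e-05), a call lost with normexp (0.32). Lama5, a broadly expressed chain of embryonic muscle and of vessels, ran the other way: 10.96, 10.79 and 10.61 in soleus, 11.61, 11.38 and 11.13 in EDL, 12.91, 12.68 and 12.53 in myotubes, and 13.51, 13.28 and 13.06 in myoblasts. It fell in soleus (-1.92, SE 0.17, adjusted p = 2.1e-06) and in EDL (-1.33, SE 0.17, adjusted p = 3.6e-05) relative to myotubes, and was at -0.58 in myotubes minus myoblasts, not called. Lama3, the alpha chain of epithelial anchoring laminins, was called in no comparison on its brightest probe (4.22 to 4.48 on average in the 4 groups). A second Lama3 probe was well above background on all muscle and all myoblast arrays and on no myotube array. It averaged 3.79 in myoblasts and was at least 3.71-fold higher in soleus and at least 4.02-fold higher in EDL than in myotubes.

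Of the laminin beta chains, beta 1 is widespread, beta 2 marks mature fibres and above all the neuromuscular junction, and beta 3 belongs to epithelia. Lamb1 (chr12:31913875-31915221, mm8) read 11, 10.97 and 10.89 in soleus, 10.91, 10.86 and 10.70 in EDL, 11.46, 11.22 and 11.20 in myotubes, and 13.13, 13.01 and 13.09 in myoblasts. It fell 3.45-fold in myotubes relative to myoblasts (-1.79, SE 0.09, adjusted p = 5.6e-08), and was at -0.34 in soleus and -0.47 in EDL minus myotubes, called lower only with spike-in scaling (-1.55 and -1.48). Lamb2 (chr9:108347961-108348020, mm8) read 12.50, 12.65 and 12.57 in soleus, 12.82, 12.81 and 13.13 in EDL, 11.52, 11.58 and 11.61 in myotubes, and 11.38, 11.41 and 11.22 in myoblasts. It was at 0.24 (SE 0.10) in myotubes minus myoblasts, not called, and rose in EDL (1.35, SE 0.10, adjusted p = 5.8e-07) and in soleus (1.00, adjusted p = 6.5e-06) over myotubes. Both Lamb2 calls were lost with spike-in scaling, at 0.34 in EDL and, with the direction turned, -0.21 in soleus, and the soleus call also without soleus replicate 2 (0.97), myotube replicate 1 (0.98) or replicate 2 in every group (0.97). Lamb3 read 7.04, 7.03 and 7.14 in soleus, 4.56, 5.37 and 4.15 in EDL (1 of 3 arrays well above background), 9.17, 9.03 and 9.04 in myotubes, and 9.03, 8.84 and 8.80 in myoblasts. It fell in EDL (-4.39, SE 0.24, adjusted p = 5.7e-08) and in soleus (-2.01, adjusted p = 2.9e-05) relative to myotubes, and soleus was above EDL (2.38, adjusted p = 4.6e-05), a call lost with normexp (0.60).

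Gamma 1 is the common gamma chain of laminins. Lamc1 was at 13.44 ± 0.14 in soleus, 13.39 ± 0.08 in EDL, 12.71 ± 0.12 in myotubes and 13.19 ± 0.11 in myoblasts and was called in none of the 6 comparisons (0.74 in soleus and 0.69 in EDL minus myotubes, -0.48 in myotubes minus myoblasts), and with spike-in scaling it was called lower in both muscles than in myoblasts. Lamc3 had wide spread on its brightest probe, 5.48 ± 0.89 in soleus, 5.67 ± 0.86 in EDL, 3.98 ± 0.93 in myotubes and 4.35 ± 0.68 in myoblasts, with replicate 1 lowest in every group. Its EDL call (1.69, SE 0.63, adjusted p = 0.0325) was lost without EDL replicate 2 (1.33) or 3 (1.57), without myotube replicate 1 (1.15), without replicate 2 or 3 in every group (1.57 and 1.87), and with spike-in scaling (0.68) or normexp (0.23), and another Lamc3 probe had the opposite sign (-1.72). With slide as a block, soleus minus myotubes was called too (1.5, adjusted p = 3.7e-05), as it was without soleus replicate 1 (2.01), myotube replicate 3 (1.80) or replicate 1 in every group (1.47).

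**Figure D4:**
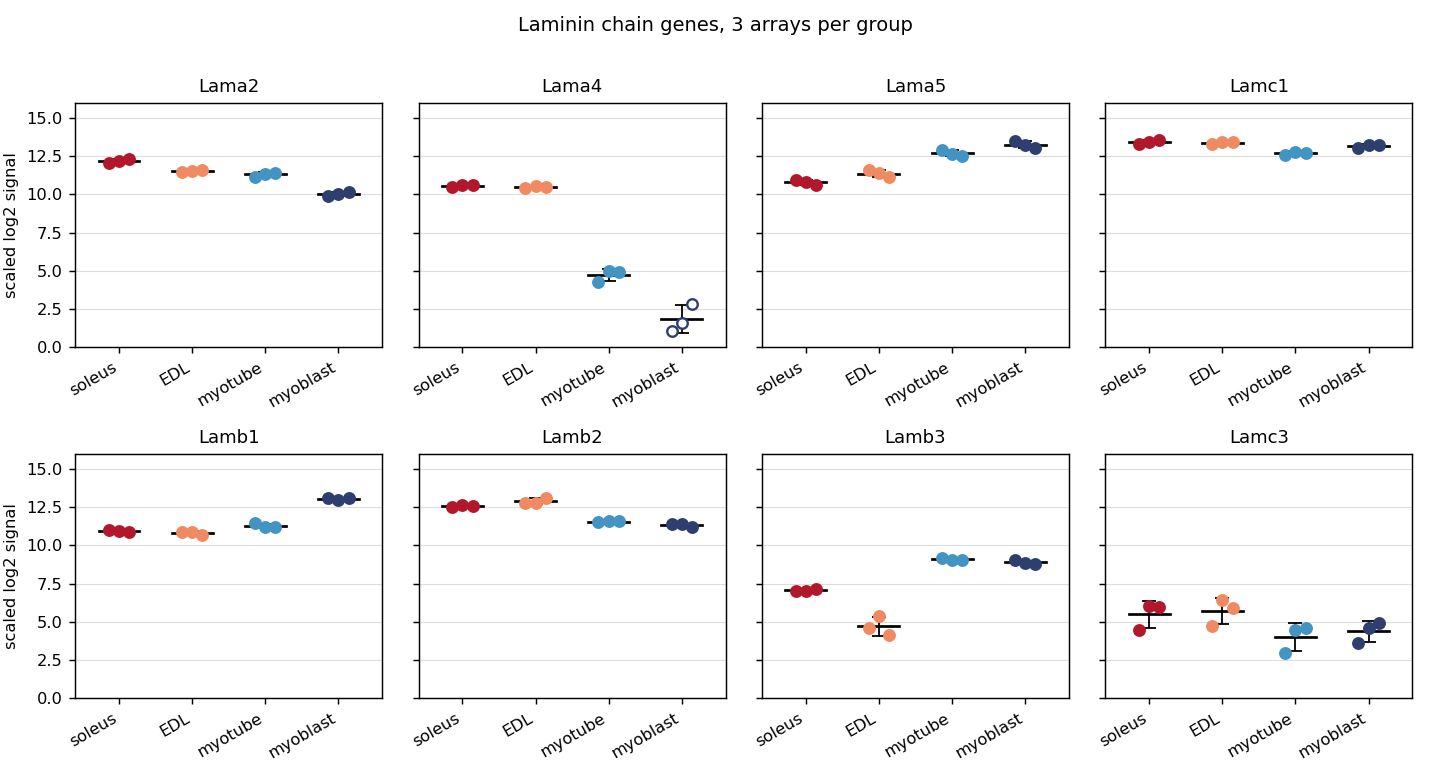
Scaled log2 signal (vertical axis) of 8 laminin chain genes in the 4 groups; points are arrays, bars the mean and SD, open points groups with no array well above background. Lama4 and Lamb2 are higher and Lama5 and Lamb3 lower in both muscles than in the cultures (Lamb2 with the 75th percentile scaling, not in soleus with spike-in scaling), and Lamb1 is highest in myoblasts.

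Ratios of 2 subunits within an array do not depend on a scaling factor. They show unequal change of the 2 genes, not which of them changed. The log2 ratio of Lamb2 over Lamb1 was higher than in myoblasts by 3.37 in soleus, 3.84 in EDL and 2.02 in myotubes. For myotubes minus myoblasts, Lamb1 by itself was at -1.79, called, and Lamb2 at 0.24, not called. The ratio of Lama2 over Lama5 was higher than in myoblasts by 4.67 in soleus, 3.42 in EDL and 1.88 in myotubes, and soleus was above EDL by 1.25. The alpha 7 ratios took another course. Itga7 over Itga6 was 1.76 higher in myotubes than in myoblasts, and the soleus and EDL ratios were 2.30 and 2.24 below that of myotubes, which left them 0.54 and 0.48 below myoblasts. Itga7 over Itga5, in contrast, was above myoblasts by 0.71 in soleus, 1.73 in EDL and 2.46 in myotubes. Itga7 over Itga3 was above myoblasts by 0.99 in soleus, 0.87 in EDL and 2.85 in myotubes, and a mean over the disagreeing Itga3 probes took it to 0 and -0.71 in the muscles. In each of these comparisons the 3 arrays of 1 group lay wholly on 1 side of the 3 of the other, and a two-sided exact permutation test gave p = 0.1, the smallest it can give with 3 against 3; the 8 ratios were each compared in 6 ways, so none can pass a threshold of 0.05.

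**Figure D5:**
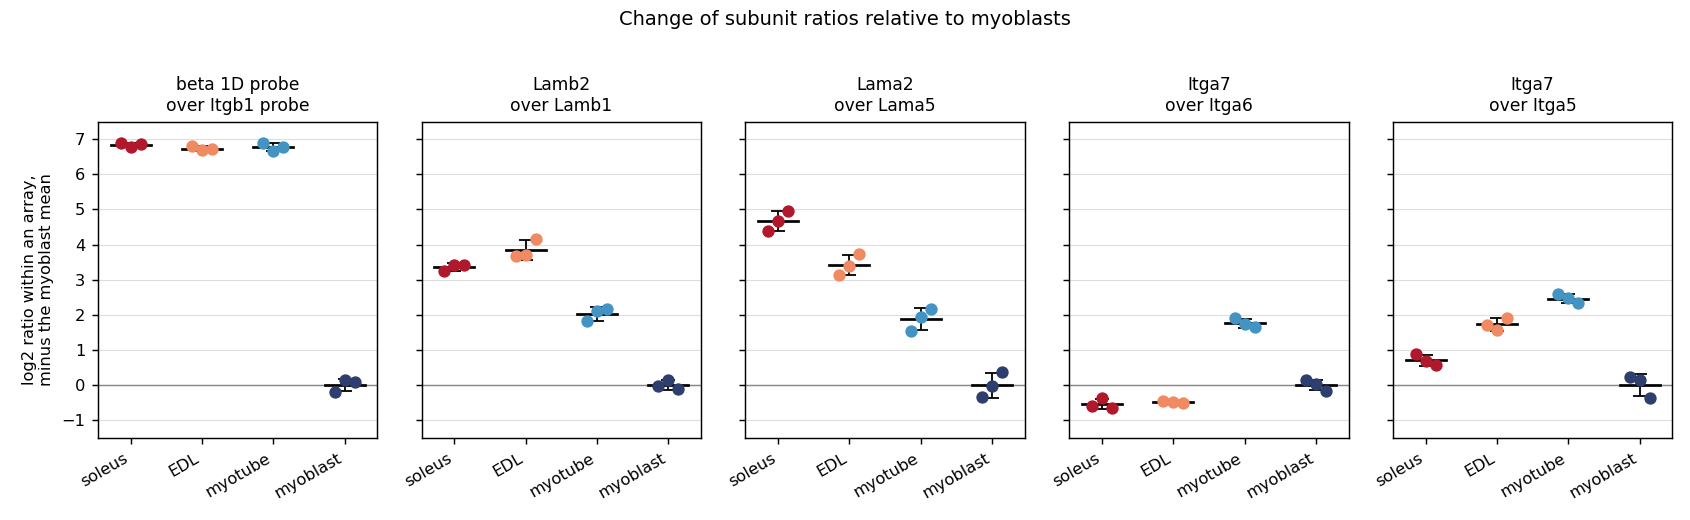
Log2 ratio of 2 probes within each array minus the mean of the myoblast arrays (vertical axis), in soleus, EDL, myotubes and myoblasts; points are arrays, bars the mean and SD of 3. The beta 1D ratio is 6.74 to 6.84 above myoblasts in the other 3 groups, the 2 laminin ratios are higher in muscle than in myotubes, and the Itga7 ratios are highest in myotubes.

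Between the muscles Itga5, Itgae and Lamb3 were called higher in soleus, and Itga4 lower. Itga5 was 2.48-fold higher in soleus than in EDL (1.31, SE 0.15, adjusted p = 9.6e-05). The Itga5 call was lost with spike-in scaling (1.1, adjusted p = 0.2) and normexp (0.83). Lama2 (0.67, SE 0.10) and Itgb6 (0.61, SE 0.10) were higher on all soleus than on all EDL arrays and under the 2-fold threshold, and Lama5 (-0.59, SE 0.17), Itga11 (-0.59, SE 0.08) and Itgb7 (-0.66, SE 0.17) were lower on all of them. Of the 34 genes 19 did not overlap between the muscles, where 44.7% of all genes did not. Itgal, at -0.94, was called without EDL replicate 1 (-1.18) and with quantile scaling (-1.03) or the authors' values (-1.06), and Itga10, at 0.56, without EDL replicate 2 (1.09) or replicate 2 in every group (1.11).

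Genes for proteins that tie integrins to the cytoskeleton were called in both directions. Of 25 tested adaptor and linker genes 4 were called higher and 6 lower in myotubes than in myoblasts, with a median of -0.27. Of all genes 18.9% were called higher and 16.5% lower there, with a median of 0.04. Itgb1bp2 (melusin), a muscle protein that binds the beta 1 tail, rose by 6.60, and Nmrk2, once named as a muscle integrin-binding protein, by 3.64, while Flna (filamin A) fell by 3.59 and Flnc (filamin C, the muscle form) rose by 1.77. In EDL minus myotubes 4 rose and 7 fell, and in soleus minus myotubes 5 rose and 8 fell. The shares of all genes called higher and lower were 27.9% and 19.8% in EDL and 25.8% and 19.5% in soleus. Tln2, the talin of mature muscle, rose by 2.81 in soleus and 1.98 in EDL over myotubes, while Tln1 was at -1.84, called, in soleus and -0.77, not called, in EDL. Vcl (vinculin) fell in both (-2.43 in soleus, -1.91 in EDL), as did Zyx (zyxin; -2.22 and -2.46). Between the muscles Actn1 (-2.25) and Tln1 (-1.07) were lower in soleus, and Lims1 (1.99) and Flnc (1.49) higher.

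Of 15 tested genes for basement membrane proteins that assemble with laminin, 2 rose and 7 fell in myotubes relative to myoblasts, with a median of -0.60. For all genes the shares called higher and lower were 18.9% and 16.5%, and the median 0.04. Nid1, the nidogen that links laminin to collagen IV, fell by 3.09, and Col4a1 and Col4a2 by 3.66 and 2.98, while Ntn4 (netrin 4) rose by 3.06 and Nid2 by 1.05. In EDL minus myotubes 8 rose and 2 fell, and in soleus minus myotubes 9 rose and 1 fell, with medians of 1.78 and 1.46, against 0.21 and 0.15 for all genes. The shares of all genes called higher and lower were 27.9% and 19.8% in EDL and 25.8% and 19.5% in soleus. Col15a1, a collagen of vessels and fibres, was well above background on all muscle and no myotube arrays, Col4a1 rose by 3.13 in soleus and 3.00 in EDL, and Nid2 fell in both (-2.79 and -2.85).

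Of 12 tested laminin receptors outside the integrin family, 6 rose and 3 fell in myotubes relative to myoblasts, with a median of 1.01. For all genes the shares called higher and lower were 18.9% and 16.5%, and the median 0.04. Dag1 (dystroglycan) rose by 2.11, Sgca (alpha sarcoglycan) by 4.03 and Bcam, an alpha 5 laminin receptor, by 4.71, and Dmd (dystrophin) was called higher, with all 3 myotube arrays and no myoblast array well above background. Sdc3 (syndecan 3) and Sgce (epsilon sarcoglycan) fell by 3.41 and 2.21. In each muscle minus myotubes 2 rose and 5 fell: Sdc1, Sdc2 and Sdc4, Utrn (utrophin) and Sgcb were lower, and Dmd and Sdc3 higher. Dag1 was at -0.52 in soleus and -0.90 in EDL minus myotubes, not called. Of 21 tested ligands of other integrins, 4 rose and 9 fell in myotubes relative to myoblasts, with a median of -0.85. Relative to myotubes, 10 rose and 7 fell in soleus and 7 rose and 8 fell in EDL. The shares of all genes called higher and lower than in myotubes were 25.8% and 19.5% in soleus and 27.9% and 19.8% in EDL. Tnc (tenascin C), a ligand of alpha 9, fell by 5.15 in myotubes, and Spp1 (osteopontin) fell by 2.20 there and was at -4.33 in soleus and -5.27 in EDL minus myotubes. Vcam1, the ligand of alpha 4, fell in myotubes (-1.84) and again in soleus (-1.04) and EDL (-1.39) relative to them. Npnt (nephronectin), the ligand of alpha 8, fell in soleus (-3.93) and EDL (-5.89) relative to myotubes.

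Whole muscle holds cells that the cultures lack, and in bulk samples fewer cells of a type and less RNA per cell cannot be told apart. All 12 endothelial markers rose in both muscles over myotubes. Pecam1, Cdh5, Emcn and Tie1 were well above background on no culture array, while 5 of the 12 were on all 3 myotube arrays and 6 on all 3 myoblast arrays. The summed log2 signal of the 12 was 15.88 to 15.90 in soleus, 15.70 to 15.76 in EDL, 9.43 to 10.00 in myotubes and 10.25 to 10.47 in myoblasts. Of 12 fibroblast and tendon markers 11 rose and 1 fell in each muscle over myotubes, with sums of 16.98 to 17.08 in soleus, 17.36 to 17.61 in EDL, 15.73 to 16.18 in myotubes and 16.21 to 16.60 in myoblasts. Of 8 Schwann cell and nerve markers 7 rose and 1 fell, with sums of 15.14 to 15.20 in soleus, 14.10 to 14.12 in EDL, 12.30 to 12.37 in myotubes and 13.72 to 13.83 in myoblasts. Of 9 smooth muscle and pericyte markers 7 rose in soleus and 6 in EDL, and of 6 adipocyte markers 5 rose in each; neither list had a gene that fell. Lama4, Itga8, Itga1, Itgb4 and Itga11 moved in the direction of these markers, and the part of other cell types in their differences was not tested. Of 7 platelet markers, 4 rose and 3 fell in soleus, and 3 rose and 3 fell in EDL. The shares of all genes called higher and lower than in myotubes were 25.8% and 19.5% in soleus and 27.9% and 19.8% in EDL.

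The 3 genes left out of the test were near the floor throughout. Lama1, the alpha chain of early embryonic basement membranes, was at 2.41 ± 0.41 in soleus, 2.53 ± 0.58 in EDL, 1.80 ± 0.40 in myotubes and 1.04 ± 0.14 in myoblasts, with no array well above background. Itga2, a collagen receptor of platelets and epithelia, and Itgb2l, a relative of Itgb2, were each well above background on 1 EDL array. A dimmer Itga2 probe passed on 1 soleus array, and no other array passed. These values limit the signal on these probes and do not show that the transcripts are absent.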

How the data were processed

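Total RNA of 12 samples was hybridised to one-colour Agilent mouse arrays, 3 samples in each of 4 groups, with the group and replicate number taken from the labels. Spot intensities were extracted with Agilent Feature Extraction 10.5.1.1, per the file headers, which give a processed signal with background subtracted and no scaling between arrays, together with the mean signal, the background signal and flags. The authors also deposited a table of processed intensities for the same arrays, whose normalization is not given in the sources used here. Its values were put on a log2 scale here and served as an alternative. From the 43379 spots that are no controls, between 68 and 140 per array with an outlier flag were left out, and none was saturated. Spots of 1 probe were averaged, each array was divided by its 75th percentile, and a common constant of 9.65 was added back to the log2 values. Of 41174 probes 28607 were well above background on all 3 arrays of some group, and the brightest probe stood for a gene. The array's 75th percentile of signal was 457.3 to 614.3 in soleus, 465.7 to 594.8 in EDL, 1018 to 1230 in myotubes and 1048 to 1556 in myoblasts, and 57.4% to 72.8% of probes were well above background. The number of arrays limits the precision.

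All 18862 genes were fitted together over the 4 groups with limma 3.58.1 (lmFit and eBayes) in R 4.3.3, with 8 residual degrees of freedom, and the Benjamini-Hochberg adjustment took in every gene tested, per comparison. The script was tested on simulated data. Where no array of the dimmer group was well above background, the fold is a bound against the lowest signal called well above background on each of those arrays. Integrin and laminin genes were named by role, and 1 gene, which enters the counts and medians, is not reported here. The genes, the lists and the tests were chosen with earlier results of these data known, and 4 pathway lists and 8 marker lists were counted beside the genes. Replicate numbers match the slides, and deviations of arrays on 1 slide correlated at 0.22 to 0.66 in 18 pairs. The main fit had no slide term, so its SEs and adjusted p-values leave this pairing out. A fit with slide as a block was made as an alternative. Slide 1 had a scan day of its own. Alternatives were quantile normalization, scaling by 8 spike-in probes, normexp background correction with an offset of 50, the authors' values, no filter, means over the probes of a gene, only the compared groups, and each replicate left out. The fit over all kept probes was chosen after seeing the data. No genome of the build of the probe coordinates (mm8) was used here, and Itgb4bp (Eif6), at 12.24 ± 0.22 in soleus, 12.36 ± 0.13 in EDL, 13.41 ± 0.24 in myotubes and 14.37 ± 0.20 in myoblasts, was left out as no subunit.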

Additional observations from a re-analysis of the deposited data

How the results depend on the processing

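Of 204 differences of the 34 genes (6 comparisons), the call, and the direction of any difference called in either setting, was kept in 204 without the filter, 204 in the fit over all probes, 201 with only the compared groups, 193 with the authors' values, 192 with quantile normalization, 182 with means over probes, 176 with normexp and 151 with spike-in scaling. Among differences called in neither setting, the sign turned in 36 with spike-in scaling, 7 each with normexp, the authors' values and means over probes, and 6 with quantile normalization. The replicate block (slide) kept 199 and added 5 calls: Itga1 in myotubes minus myoblasts (1.28), Lamc3 in soleus minus myotubes (1.5), EDL minus myoblasts (1.33) and soleus minus myoblasts (1.14), and Itgax in soleus minus myoblasts (1.26). No called difference changed sign within any of the 3 slides. With normexp the 15 calls in myotubes minus myoblasts became 6 and the 5 in soleus minus EDL became 2, and spike-in scaling left 3 in soleus minus EDL. Spike-in scaling also turned 9 directions of differences called in 1 of the settings: in soleus minus myotubes Itga2b (-1.16), Itgam (-0.11) and Lamb2 (-0.21), in EDL minus myoblasts Itgae (-0.02), Itgb2 (-0.23) and Lamc1 (-1.16), and in soleus minus myoblasts Itgb3 (-1.44), Lamb2 (-0.33) and Lamc1 (-1.32). Its share of calls that were higher over all genes was 36.7% (53.4% with the 75th percentile) in myotubes minus myoblasts, 24.4% (58.4%) in EDL and 19.4% (57%) in soleus minus myotubes, and 38.2% (51.5%) in soleus minus EDL. Means over probes turned Lamc3 (1.17 in myotubes minus myoblasts, -0.01 in EDL minus myotubes), Lama3 (1.23 in soleus and 1.21 in EDL minus myotubes) and Itgb1 (1.56 in soleus and 1.26 in EDL minus myoblasts, where the beta 1D probe enters the mean). Of the ratio changes, Lama2 over Lama4 in myotubes minus myoblasts became 0.82 with normexp, and with means over probes Itga7 over Itga3 became 0 in soleus and -0.71 in EDL minus myoblasts and Lama2 over Lamc1 became -0.02 in soleus minus myotubes. Apart from the cases with a named construction, the cause was not tested. Leaving out replicates gave 14 to 15 calls in myotubes minus myoblasts, 17 to 21 in EDL minus myotubes, 15 to 20 in soleus minus myotubes, 5 to 6 in soleus minus EDL, 23 to 28 in EDL minus myoblasts and 24 to 26 in soleus minus myoblasts. Dim probes, such as those of Itga2b, Itga10, Itgam and Lamc3, lie close to the background, which limits how precisely their differences can be read.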
